A study of Mus musculus with 2 samples.

Results

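The AP-1 factor genes Fos, Fosb, Fosl1, Fosl2, Jun, Junb, Jund, Atf3, Jdp2 and Maff were examined in an ATAC-seq experiment on primary murine cardiac fibroblasts. They were chosen by name, as the table rows that carry 1 of these 10 gene symbols together with the intergenic peaks that the table places nearest to their transcription start site (TSS). This gave 28 of the 63316 peaks in the table, 20 of them inside or next to a member by symbol and 8 intergenic. Of the 10 genes, 9 had a peak, among 20175 genes with a peak in all, and Jun had none.

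AP-1 is a transcription factor made of a pair of proteins joined through their leucine zippers, usually a member of the Fos family with a member of the Jun family. Atf3, Jdp2 and the small Maf protein Maff are related basic leucine zipper (bZIP) proteins that can pair with them or bind similar DNA. Growth factors, mechanical load and TGF-β act on these genes and proteins through MAP kinases, and many of the genes are immediate-early genes, transcribed within minutes of a stimulus. In fibroblasts AP-1 is known for its binding sites in the genes of matrix metalloproteinases and other matrix proteins.

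Both groups were primary cardiac fibroblasts from mouse heart that had been treated with TGF-β (5 ng/ml, 24 h). In 1 of them the cells carried scrambled siRNA (SCR, labelled NC) and in the other an siRNA against Piezo2 (siPiezo2), a mechanically gated ion channel. There was 1 library per group, so no difference between the groups can be tested, and a sample without TGF-β was not analysed here. The knockdown was transient, the age and number of the donor mice are not given in the sources used here, and the design text deposited with the series names Tet3 and Cre instead, a conflict that was not settled.

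The table gives 1 normalized read density per library for each peak, and the reads behind it could be recovered as whole numbers in a window of 2000 bp. Over all windows there were 4615335 reads in SCR and 2754046 in siPiezo2, with a median of 58 and 36 per window. The windows of the AP-1 factor peaks held 3904 and 2116 reads, with a median of 142.5 and 65.5. Of the 28 windows, 12 overlap another of them, so that some of these reads are counted more than once, and 22 separate windows are left when 6 are dropped. Windows were kept from the lowest position up, whatever their ratio. Each log2 ratio is that of siPiezo2 to SCR density after 1 was added to both, and the 95% interval behind each is an exact binomial (Clopper-Pearson) interval from the reads, which covers counting error only and not the variation between cultures. In peaks found in both libraries the squared log2 ratio, divided by its counting variance, had a median 1.92 times that under counting error alone. This factor also holds any difference between the groups. Intervals widened by this single factor for all peaks were added after the data were seen. The libraries carried peaks at all 10 fibroblast markers listed, 9 of which had a peak within 1 kb of a TSS (summed density 3031 in SCR and 2529 in siPiezo2). Peaks within 1 kb of a TSS were found for 1 of 7 cardiomyocyte markers (Myh6, Myl2 and Ttn had no peak at all), 0 of 6 endothelial markers, 0 of 6 macrophage markers (Cd68 and Lyz2 had no peak) and 1 of 5 mural cell markers. The summed density of the macrophage markers was 399 and 289, that of the endothelial markers 822 and 763, that of the cardiomyocyte markers 384 and 346 and that of the mural markers 538 and 462. All 4 macrophage markers with a peak were lower in siPiezo2 (median log2 ratio -0.47), as 65.7% of all genes were. Of the endothelial and of the mural markers 3 of 5 with a peak were lower, with medians of -0.028 and -0.0019. Below 0.66 of SCR, as 6.45% of all genes were, lay 3 marker genes. They were Adgre1, 1 of 4 macrophage markers with a peak (56 and 25 reads, log2 ratio -0.61, interval -1.35 to 0.097), Emcn, 1 of 5 endothelial ones (336 and 135 reads, -0.71, interval -1.01 to -0.41), and Rgs5, 1 of 5 mural ones (410 and 161 reads, -0.82, interval -1.09 to -0.55). The part of other cell types in the values below was not tested.

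Promoter sequences of Fos, Atf3, Jdp2 and Maff are shown here because a peak of an AP-1 factor gene covers each of them and because they hold the same short motif, TGACGT, part of the site that CREB, ATF and AP-1 proteins bind. They are the 250 bases before the RefSeq start in GRCm38.p6, read 5′ to 3′ on the strand of the gene, and come from another assembly than the peak positions, so they were matched through the transcript nearest to the peak. Capitals mark matches, on either strand, to TGACGT or, in Jdp2, also to the TEAD motif GGAATG, which reads CATTCC there.

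Fos, chr12:85473640-85473889, + strand: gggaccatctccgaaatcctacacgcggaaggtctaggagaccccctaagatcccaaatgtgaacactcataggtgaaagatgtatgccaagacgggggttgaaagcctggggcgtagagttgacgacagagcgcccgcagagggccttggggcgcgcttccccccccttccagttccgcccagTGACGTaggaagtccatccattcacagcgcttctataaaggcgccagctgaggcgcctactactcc

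Atf3, chr1:191183334-191183583, - strand: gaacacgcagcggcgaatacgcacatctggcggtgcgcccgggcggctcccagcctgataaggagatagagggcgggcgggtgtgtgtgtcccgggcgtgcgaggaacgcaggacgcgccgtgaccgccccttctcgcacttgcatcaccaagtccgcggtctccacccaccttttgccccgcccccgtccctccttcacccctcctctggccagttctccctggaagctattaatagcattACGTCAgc

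Jdp2, chr12:85599166-85599415, + strand: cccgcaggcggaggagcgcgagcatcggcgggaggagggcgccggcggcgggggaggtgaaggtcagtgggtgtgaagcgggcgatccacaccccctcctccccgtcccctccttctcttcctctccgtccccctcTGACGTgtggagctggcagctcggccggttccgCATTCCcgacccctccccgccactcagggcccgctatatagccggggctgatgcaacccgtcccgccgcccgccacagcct

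Maff, chr15:79347270-79347519, + strand: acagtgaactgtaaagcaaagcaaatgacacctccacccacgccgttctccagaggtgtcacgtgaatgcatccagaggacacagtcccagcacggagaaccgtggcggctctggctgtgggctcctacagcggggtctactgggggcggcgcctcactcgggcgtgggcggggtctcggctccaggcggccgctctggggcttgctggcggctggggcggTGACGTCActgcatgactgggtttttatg

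The match lies at -66 to -61 from the start in Fos, at -8 to -3 in Atf3 and at -114 to -109 in Jdp2. In Maff the palindrome TGACGTCA, from -29 to -22, gives a match on each strand that overlap by 4 bases. RefSeq promoters were given for 9 of the 10 genes, in 13 windows of 250 bases, and 4 of the 13 held TGACGT, which 6.47% of 32851 promoter windows of that length hold. The AP-1 site itself, TGANTCA, was in 0 of the 13 (6.75% of all windows), the CArG box bound by SRF in 0 (1.47%) and the TEAD motif in 1 (12.6%). A match is only a run of letters, and its absence concerns only this window.

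**Figure D1:**
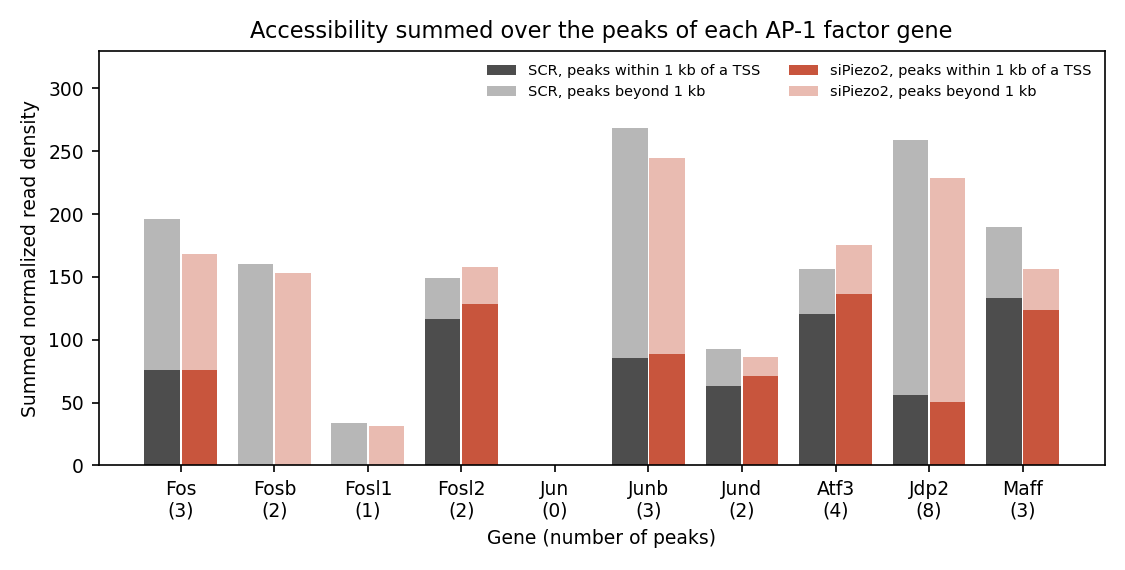
Normalized read density summed over the peaks of each AP-1 factor gene, in SCR (grey) and siPiezo2 (red), with the part from peaks within 1 kb of a TSS in the darker shade and the number of peaks under each name. There is 1 library per bar, so no error bar is drawn. Junb and Jdp2 reach 268 and 259 in SCR, Fosl1 33.4, and the paired bars of each gene lie close to each other.

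Summed over its peaks, the 9 AP-1 factor genes lay between 0.826 (Maff) and 1.12 (Atf3) of SCR in siPiezo2. Their log2 ratios ran from -0.28 for Maff to 0.17 for Atf3, with a median of -0.10, and 7 of the 9 were below 0. Over all 20175 genes the median was -0.11 and 65.7% were below 0. No member was below 0.66 of SCR, as 6.45% of all genes were, and none was above 1.5 of SCR, as 1.5% were. The interval of Maff (-0.51 to -0.049) lay wholly below 0, the others of these sums included 0, and all but that of Atf3, which lay above it, included the median of all genes. With separate windows the intervals of both Maff (-0.62 to -0.049) and Junb (-0.50 to -0.049) lay below 0. Both included the median of all genes with separate windows, -0.11. Without the promoter peak of Junb, in place of the upstream peak that overlaps its window, the interval of Junb (-0.46 to 0.0051) included 0. The plot of summed density by gene shows the order of the levels, from Junb, Jdp2, Fos and Maff down to Jund and Fosl1, but a sum grows with the number of peaks that a gene is given.

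Fos and Fosb encode the classical immediate-early partners of Jun. The Fos promoter peak at chr12:85520173-85520861, which spans -491 to 197 around the TSS and so covers the sequence above, had a density of 75.9 in SCR and 75.5 in siPiezo2 (202 and 112 reads). Its log2 ratio was -0.0081 (interval -0.35 to 0.33), the value nearest to 0 among the promoter peaks of the members. Past the end of Fos lay another pair of peaks, 801 and 1621 bp from the annotated gene end. The nearer one, at chr12:85524848-85525103, had densities of 67.3 and 57.8 (log2 ratio -0.22, interval -0.60 to 0.16). The farther one, at chr12:85525668-85525882, had 52.7 and 35.0 from 133 and 54 reads, a log2 ratio of -0.58 (interval -1.06 to -0.11), and its widened interval (-1.21 to 0.056) reached past 0. The windows of this pair overlap. Summed over the 3 peaks, Fos had 196 in SCR and 168 in siPiezo2 (log2 ratio -0.22, interval -0.44 to 0.0021). Without the farther one, whose window was the one dropped, the log2 ratio was -0.10 (interval -0.36 to 0.15). The farther one is also the lower of the pair in log2 ratio, and a sum without the nearer one was not made.

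Fosb had no peak centred within 1 kb of its TSS. The peak nearest to it, at chr7:19042103-19042821 and centred 1063 bp inside the gene, had a density of 80.3 in SCR and 74.3 in siPiezo2 (log2 ratio -0.11, interval -0.46 to 0.23). Its neighbour at chr7:19041544-19041838, in an overlapping window and in the same annotated exon, had 80.1 and 78.5 (log2 ratio -0.029, interval -0.37 to 0.30). Both rank in the top 2% of all peaks by mean density, at the 98.1 and 98.3 percentile.

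Fosl1 and Fosl2 encode Fra-1 and Fra-2, Fos proteins that lack the strong activation domain of Fos. Fosl1 had 1 peak, at chr19:5495018-5495355, intergenic and centred at -2389 bp from its TSS. It was the weakest of the 9 genes, with a density of 33.4 in SCR and 31.7 in siPiezo2 from 82 and 50 reads (log2 ratio -0.075, interval -0.61 to 0.45). Fosl2 stood at the other end: its promoter peak at chr5:32292655-32293433 was the densest of all the AP-1 factor peaks, at 117 in SCR and 128 in siPiezo2, and lay at percentile 99.5 among the 14801 peaks within 1 kb of a TSS. Its log2 ratio was 0.14 (interval -0.13 to 0.40, 324 and 183 reads). A weaker intergenic peak at chr5:32318236-32318540, 7179 bp past the end of Fosl2, had 32.3 and 29.7 (log2 ratio -0.12, interval -0.67 to 0.42).

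Jun, the gene of the founding Jun protein c-Jun, had no peak by symbol or by nearest TSS. Its start lies beside that of Junos, a noncoding gene on the other strand, whose RefSeq start in GRCm38.p6 is 95 bp upstream of that of Jun. The table assigns to Junos a peak at chr4:94940292-94941066 with a density of 141 in SCR and 165 in siPiezo2 (399 and 232 reads, log2 ratio 0.23, interval -0.0082 to 0.47). A second one, at chr4:94941372-94941756, had 86.6 and 93.6 (log2 ratio 0.11, interval -0.20 to 0.42). The transcript nearest to the second peak starts, in GRCm38, 1018 bp upstream of the Jun TSS, and the first peak lies 411 to 1185 bp from that start on the side of Jun. This stretch would span the Jun TSS if the distance is the same in the assembly of the table. The Junos peaks were picked after their values were seen and are counted in no total of the AP-1 factor genes.

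Junb, whose protein can oppose that of Jun, had the highest summed density (268 in SCR and 245 in siPiezo2, log2 ratio -0.13, interval -0.32 to 0.053). Its 3 peaks did not share a direction. The promoter peak at chr8:85705222-85705585 had 85.7 and 88.6 (log2 ratio 0.047, interval -0.27 to 0.36), and the peak centred at -1233 bp from the TSS, at chr8:85706253-85706908, had 75.2 and 85.3 (0.18, interval -0.15 to 0.51). The peak at chr8:85702601-85703459, just downstream of the gene, had 108 in SCR and 71.0 in siPiezo2 from 290 and 104 reads. It was the densest of the 3 in SCR and, by a small margin, in the mean of the libraries, but the weakest of them in siPiezo2. Its log2 ratio was -0.59 (interval -0.93 to -0.26), and the widened interval, -1.04 to -0.14, also lay below 0. This peak was found in SCR only, while the widening was set on peaks found in both libraries. At 0.664 of SCR it was the member peak nearest to the threshold of 0.66 without passing it. With the upstream peak left out, whose window overlaps that of the promoter peak, the summed log2 ratio of Junb was -0.27 (interval -0.50 to -0.049). With the promoter peak left out instead, it was -0.22 (interval -0.46 to 0.0051).

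Jund, the Jun family member that most cells express without a stimulus, showed the same kind of split. Its promoter peak at chr8:71151219-71151772 had a density of 63.5 in SCR and 70.7 in siPiezo2 (167 and 106 reads, log2 ratio 0.15, interval -0.21 to 0.51). An intergenic peak centred at -10.6 kb, at chr8:71140765-71141167, had 29.2 and 15.6 from 69 and 25 reads, a log2 ratio of -0.87 (interval -1.59 to -0.19). It was below 0.66 of SCR, but its widened interval (-1.78 to 0.047) included 0. Nearness to the TSS is the only link between this peak and Jund in the table.

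Atf3, a stress-induced repressor of the family, had the highest log2 ratio of the 9 genes, from a sum of 156 in SCR and 175 in siPiezo2 (0.17, interval -0.062 to 0.39). Its promoter peak at chr1:190915309-190915897, over the sequence above, had 63.0 and 75.6 (166 and 113 reads, log2 ratio 0.26, interval -0.099 to 0.61). The peak beside it in intron 1, at chr1:190914562-190914900 and within 1 kb of the TSS, had 57.7 and 60.8 (log2 ratio 0.075, interval -0.32 to 0.46). The other 2 intron peaks were among the weakest of the members. That in intron 2, which lies nearest to the TSS of another gene, had 16.5 and 20.1, and that 1.7 kb from the TSS of a longer isoform had 19.0 in each library.

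Jdp2 encodes a repressor that pairs with Jun proteins, and with 8 peaks it had the most of any member. Summed over them, the density was 259 for SCR and 229 for siPiezo2 (log2 ratio -0.18, interval -0.37 to 0.012), close to the median of -0.17 over the 379 genes with 8 peaks. The promoter peak at chr12:85645927-85646245, over the sequence above, was the strongest, with 55.9 and 50.5 (144 and 77 reads, log2 ratio -0.14, interval -0.56 to 0.27). In intron 1, 2.6 kb after the TSS, the peak at chr12:85651468-85651747 had 36.6 and 18.3 from 88 and 29 reads. This was the lowest log2 ratio of the 28 peaks, at -0.96 (interval -1.62 to -0.34, widened -1.80 to -0.12). A peak in intron 2 at chr12:85670657-85670870 had 22.5 and 13.5 from 52 and 22 reads (log2 ratio -0.70), and although it was below 0.66 of SCR, even its counting interval (-1.49 to 0.050) included 0. The other 5 peaks had log2 ratios from -0.15 to 0.21 with intervals on both sides of 0, so 2 of 8 peaks were past the fold while the gene as a whole was not.

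Maff, the gene of a small Maf protein with no activation domain of its own, had the lowest summed log2 ratio (189 in SCR and 156 in siPiezo2, -0.28). It has a pair of promoter peaks at the starts of different transcripts. The first, at chr15:79231453-79231914 over the sequence with the palindrome, had 69.5 and 66.9 (log2 ratio -0.054, interval -0.42 to 0.31), and the second, at chr15:79232335-79232679, had 64.1 and 57.0 (-0.17, interval -0.56 to 0.22). Most of the difference lay in intron 1, 3.1 kb after a TSS, where the peak at chr15:79235470-79235910 had 55.9 in SCR and 32.4 in siPiezo2 from 141 and 50 reads. Its log2 ratio was -0.77 (interval -1.26 to -0.29, widened -1.41 to -0.12).

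**Figure D2:**
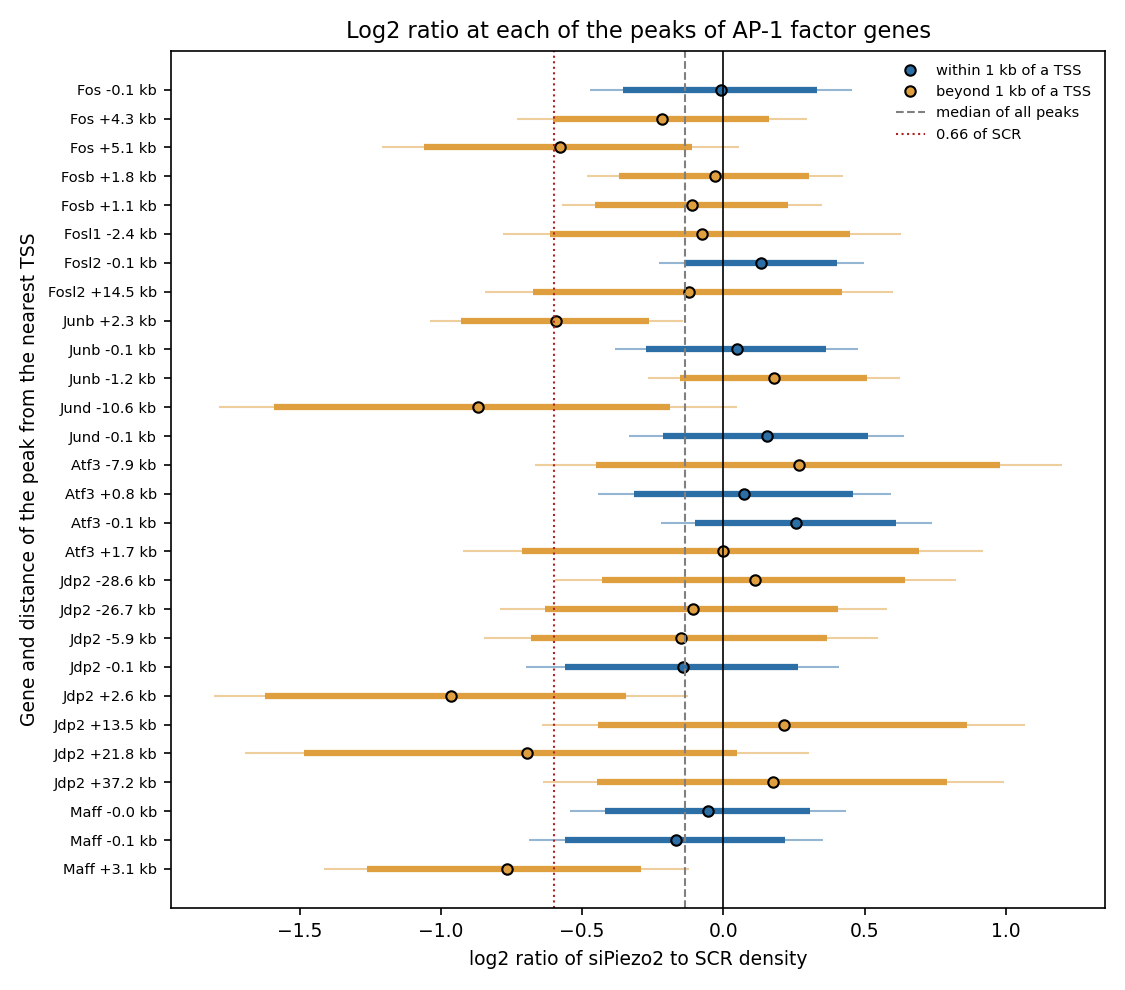
Log2 ratio of siPiezo2 to SCR density at each of the 28 AP-1 factor peaks, named by gene and distance in kb from the nearest TSS, blue within 1 kb of a TSS and orange beyond. Thick lines are 95% exact binomial intervals and thin lines the intervals widened for 1.92 times the counting variance. The blue points lie between -0.17 and 0.26, and the 4 points left of the dotted line at 0.66 of SCR are all orange.

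Set side by side, the promoter peaks of the AP-1 factor genes all had intervals that included 0, and each of the peaks past the fold lay away from them. The 9 peaks within 1 kb of a TSS had log2 ratios from -0.17 to 0.26 with a median of 0.047, and 4 were below 0. Over all 14801 such peaks the median was -0.042 and 55.5% were below 0. The 19 peaks beyond 1 kb had log2 ratios from -0.96 to 0.27 with a median of -0.11, and 14 were below 0, while over all 48515 such peaks the median was -0.17 and 66.2% were below 0. In all, 4 of the 28 peaks were below 0.66 of SCR and none was above 1.5, where the background was 13.5% and 3.21% of all peaks. None of the 9 peaks near a TSS was below 0.66 (background 6.43%), and 4 of the 19 others were (background 15.7%). These counts are near the background, so they are not a result about the AP-1 factor genes.

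The library in which a peak was found moved with the same split. Of the 28 peaks, 11 were found in both libraries, 17 in SCR only and 0 in siPiezo2 only, where 64% of all peaks were found in SCR only and 2.16% in siPiezo2 only, so this division is near the background. All 4 peaks below 0.66 were among the 17 found in SCR only. Beyond 1 kb of a TSS this was 4 of 15 peaks found in SCR only, beside 19.4% of all 34270 such peaks. The 11 peaks found in both libraries ranged only from -0.15 to 0.26, with a median of -0.0081 (0.0025 over all peaks of that kind), and the 17 found in SCR only had a median of -0.12 (-0.23 over all). A peak found in SCR only was picked for its signal in that library, the one with more reads. Of the 28 counting intervals 5 lay wholly below 0 and 0 above it, beside 11.4% and 3.63% of all peaks, whose windows hold fewer reads and so have wider intervals. Of the widened ones 3 lay below 0 (4.53% of all peaks), and no feature of the AP-1 factor genes is read from these counts. The 3 were those of the downstream peak of Junb and of the intron 1 peaks of Jdp2 and Maff. Each was found in SCR only, so none is of the kind on which the widening was set. Their widened intervals all included -0.24, the median of all peaks found in SCR only beyond 1 kb of a TSS.

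**Figure D3:**
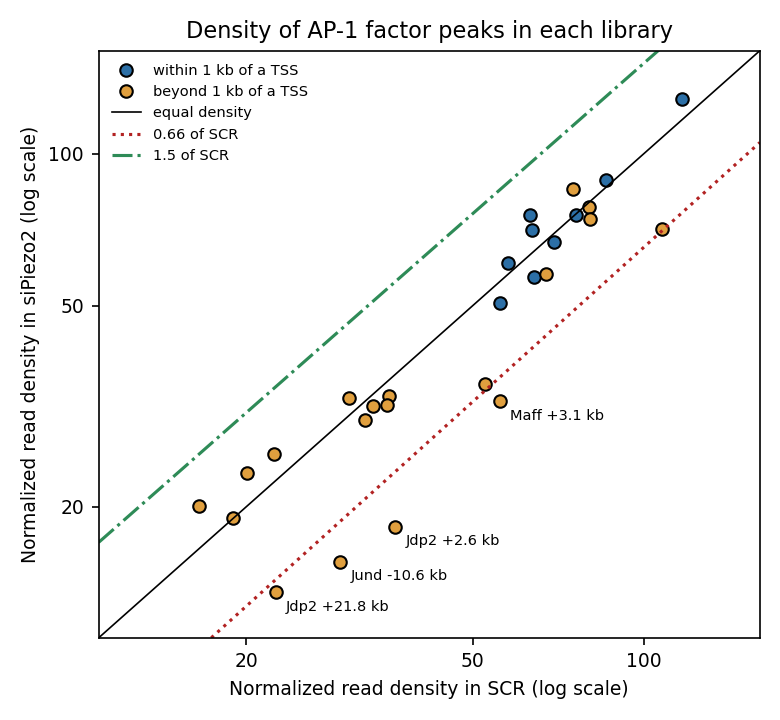
Normalized read density of each of the 28 AP-1 factor peaks in SCR (x axis) and siPiezo2 (y axis), both on log scales, blue within 1 kb of a TSS and orange beyond. Lines mark equal density, 0.66 and 1.5 of SCR. The blue points lie along the line of equal density from 50.5 upward, and the 4 named points, with 13.5 to 32.4 in siPiezo2, lie below the line at 0.66.

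Of the 10 genes, 7 had a peak within 1 kb of a TSS, and these peaks were also strong. Fosb, Fosl1 and Jun had none and are not part of this ranking. Among all peaks within 1 kb of a TSS, ranked by mean density, those of the members ran from percentile 82.9 (Jdp2) to 99.5 (Fosl2), with Fos at 94.6, Junb at 96.9 and Jund at 91.7. The median of all such peaks was 33.9 in SCR and 32.1 in siPiezo2, and each of the 9 member peaks was above 50 in both libraries. The plot of density in each library shows these points apart from most of the weaker distal ones.

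Another common factor shifted members and other peaks alike, while leaving out the fit by density did not. The authors' scaling centres the peaks found in both libraries. When the libraries were instead scaled by the median of ratios, the median of all genes moved from -0.11 to 0.024, and that of the AP-1 factor genes stayed 0.011 above it, as it was 0.010 above it in the authors' scaling. Under the median of ratios, 3 of the 9 genes, in place of 7, were below 0, and the medians of the member peaks were 0.19 within 1 kb of a TSS (0.093 over all such peaks) and 0.027 beyond (-0.035 over all). In the recovered reads at the same total, without the fit by density, the AP-1 factor median minus that of all genes was -0.13, and 7 of the 9 genes instead of 4 lay below the median of all genes. The median of the 9 peaks near a TSS was then -0.084 beside 0.038 for all such peaks, so its sign depends on the fit by density. Of the 19 other peaks, 4 were below 0.66 there (21.1%, beside 8.41% of all such peaks), but these shared only 3 with the 4 above. The intron 2 peak of Jdp2, at 0.723 of SCR, was no longer among them, and the downstream peak of Junb, at 0.605, was.

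**Figure D4:**
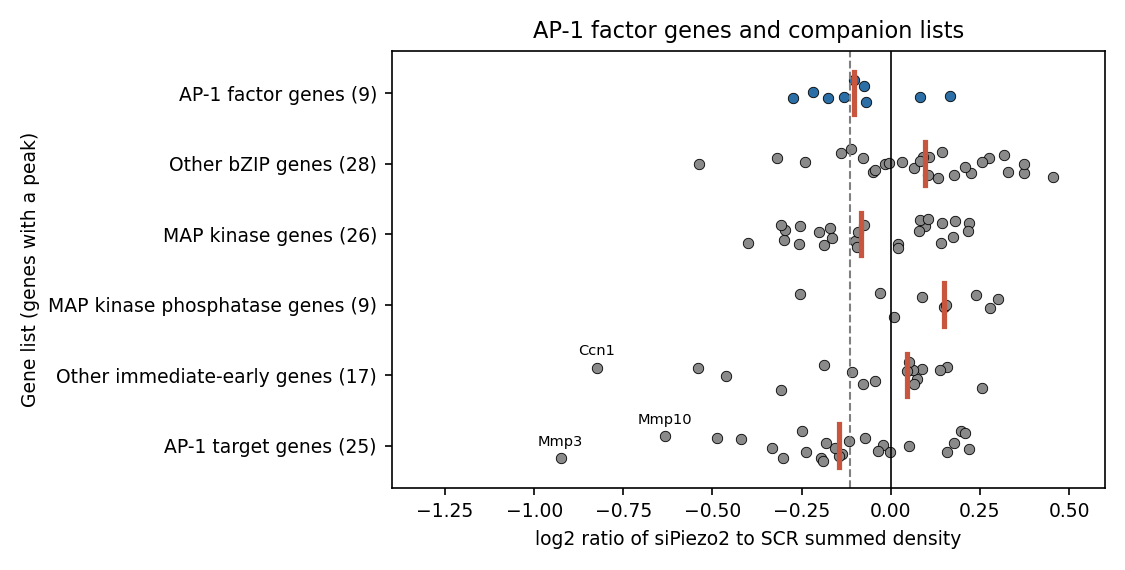
Log2 ratio of siPiezo2 to SCR summed density for the AP-1 factor genes (blue) and 5 companion gene lists (grey), 1 point per gene with a peak, with red bars at the list medians, a dashed line at the median of all genes and the genes past the fold named. The AP-1 factor median, -0.10, lies by the dashed line at -0.11, and the 3 named genes are the AP-1 targets Mmp3 and Mmp10 and the immediate-early gene Ccn1.

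Genes that act around AP-1 were described by the same sums. MAP kinase genes, whose products phosphorylate Jun and induce Fos, had a peak in 26 of 27 cases and a median of -0.084, with 14 below 0, but the median was above 0 under median-of-ratios scaling (0.055), the same total (0.0038), recovered reads (0.096), the strongest peak (0.053) and peaks within 1 kb of a TSS (0.029). Their phosphatases, which switch the kinases off, had a median of 0.15 in 9 of 10 genes with a peak, with 2 below 0, and of -0.091 over peaks within 1 kb of a TSS. Other bZIP genes, from Atf2 and Creb1 to Nfe2l2, had 0.097 in 28 of 32, with 10 below 0. In none of these 3 lists was a gene past the fold in either direction.

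The other immediate-early genes, such as Egr1 and Nr4a1, had a median of 0.044 over all 17, with 8 below 0, and of -0.0071 in recovered reads and -0.018 over peaks within 1 kb of a TSS. Of them 1 was past the fold and lower, Ccn1, a matricellular protein gene and known YAP/TAZ target, with 359 in SCR and 202 in siPiezo2 over 5 peaks (log2 ratio -0.82, interval -1.02 to -0.64). Known AP-1 target genes had a peak in 25 of 26 cases and the lowest median of the 5 lists, -0.15, with 19 below 0 and 2 past the fold, both lower. This is near the median of all genes, -0.11, of which 65.7% were below 0, and the list median was -0.0075 under median-of-ratios scaling and -0.016 in recovered reads. The genes past the fold were the stromelysin genes Mmp3 and Mmp10, whose products degrade matrix proteins, with 1 peak each. Mmp3 had 19.5 and 9.80 from 44 and 16 reads (log2 ratio -0.93, interval -1.85 to -0.072), and Mmp10 had 16.6 and 10.3 from 37 and 17 reads (-0.63, interval -1.55 to 0.23). These 2 of 25 stand beside a background of 6.45% of all genes, and no test of the lists was made.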

How the data were processed

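ATAC-seq libraries of SCR and siPiezo2 fibroblasts were compared, 1 per group. The authors deposited 1 table of peaks with a read density per library (a normalized signal) and log2 columns for the ratio and the mean density. Per the labels BWA 0.7.12 and mm10 were used, and the methods name Picard, MACS2, HOMER and featureCounts. The ATAC-seq section of the methods starts from minced tissue and names a kit other than that in the labels, while the reagent list of the study holds the kit of the labels; this was not settled. Gene coordinates in the table are those of GRCm39, and peak positions are given as in the table. The columns of the authors' comparison (log2 ratio and p-value) were not used. Reads were recovered from the densities and the mean log2 density.

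The members and the gene lists were chosen with earlier results of these data known. All members were named, with their strongest peak, the peak nearest to the TSS and each peak past the fold, and in the lists the genes past the fold, at most 5 per direction. Other peaks, genes of the lists and the Junos peaks were picked after their values were seen. A gene was the sum of its densities over all peaks assigned to it by the annotation or, if intergenic, by the nearest TSS. Ratios below 0.66 or above 1.5, after a pseudocount of 1, counted as past the fold. The pseudocount understates differences at weak peaks. Reads were whole within 0.05 in 100% of the peaks, at an intercept of -0.25 and a slope of 0.17 of the authors' fit. With 1 library per group no test was made, and the DESeq2 step that the methods name was not repeated. Of the AP-1 target genes, 1 gene of the list is not reported here and was left out of its counts and median. Lists of fibroblast, cardiomyocyte, endothelial, macrophage and mural cell markers were also read. Alternatives were a pseudocount of 0.1, 3 other scalings, the stronger 75% of peaks, the strongest peak, peaks within 1 kb of a TSS, separate windows, no intergenic peaks and a fold of 2. The splits by distance under other scalings and the widened intervals were chosen after seeing the data. The steps were tested on simulated data. Software was scipy 1.17.1, pandas 2.3.3, numpy 2.4.6 and matplotlib 3.10.9 under Python 3.11.15.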

Additional observations from a re-analysis of the deposited data

How the results depend on the processing

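No AP-1 factor gene passed either fold under any alternative run. The count of 4 lower AP-1 factor peaks was 4 under each alternative run for it except median-of-ratios scaling and the stronger 75% of peaks, with 3 each, and a fold of 2, with 0. The median of the AP-1 factor genes ran from -0.12 (separate windows) to 0.047 (peaks within 1 kb of a TSS), and was also above 0, at 0.035, with median-of-ratios scaling. Median-of-ratios scaling moved the median of all peaks from -0.13 to 0. With it the median of the AP-1 factor peaks within 1 kb of a TSS was 0.19, and the list medians were -0.0075 for AP-1 target genes, 0.29 for MAP kinase phosphatase genes, 0.23 for other bZIP genes and 0.18 for other immediate-early genes. With the same total over all peaks the other immediate-early genes had 0.13. In the recovered reads at the same total the AP-1 target genes had -0.016 and the MAP kinase genes 0.096. Over peaks within 1 kb of a TSS the phosphatase genes had -0.091, and by the strongest peak of the gene the other bZIP genes had 0.23. By its strongest peak in the mean of the libraries, Junb had -0.59 in place of -0.13, and that peak, the downstream one, ranks first through SCR and is the weakest of the 3 in siPiezo2. Beside these, 88 summary values and 77 values of single genes stayed inside their interval or, for counts, within 1.5 times the reported count. The cause of each shift beyond its construction was not tested. No paired analysis was possible because there was 1 library per group. Depth limits single peaks most: the member windows had a median of 142.5 reads in SCR and 65.5 in siPiezo2, and the lowest counts were 38 in SCR and 22 in siPiezo2, in different windows.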
